A study of Mus musculus with 8 samples.

Results

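The features described here are the nuclear tRNA genes for glutamine (Gln), threonine (Thr), proline (Pro), phenylalanine (Phe) and tryptophan (Trp). They were chosen by name alone, as every listed tRNA feature whose name carries one of these 5 amino acids. The rule found 66 gene copies of 429 nuclear tRNA copies and 3514 features in all, and these copies carry 10 of the 51 anticodons listed. All 66 copies were listed in both tables and had reads in all 8 libraries. By anticodon they comprised 10 copies of Gln CTG, 6 of Gln TTG, 9 of Thr AGT, 4 of Thr CGT, 4 of Thr TGT, 7 of Pro AGG, 3 of Pro CGG, 8 of Pro TGG, 7 of Phe GAA and 8 of Trp CCA, with the anticodon written as DNA.

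The libraries were made from bone marrow-derived macrophages (BMDMs) of 10-week-old male C57BL/6J mice, which were differentiated in L929 conditioned medium as a source of Macrophage-Colony Stimulating Factor (M-CSF). Control cells kept M-CSF, and M-CSF withdrawal cells were deprived of it for 36 h, an apoptotic stimulus. An Ion Proton run held 2 control and 2 withdrawal libraries of small RNA, and a SOLiD run held a control and a withdrawal library of total RNA besides a control and a withdrawal library of gel-cut RNA between 25 and 40 nt. No genetic alteration was made in any group, and the methods call the Ion Proton replicates biological. The labels do not say whether these came from separate cultures or animals, and p-values measure the spread between the libraries.

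Transfer RNAs are transcribed by RNA polymerase III, carry an amino acid at their 3′ end and read the codon through their anticodon. Most mammalian tRNAs are encoded by many near-identical genes, several of them in a large cluster beside histone genes. In stressed cells, ribonucleases such as angiogenin cut tRNAs in the anticodon loop and release fragments. The deposited values do not tell a whole tRNA from a fragment of it.

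The 66 copies were 72 to 74 nt long in the mm10 build. They lay on 14 chromosomes, with 19 copies on chromosome 13, between positions 21161405 and 23519684, and 15 copies on chromosome 11. By the GENCODE annotation 60 copies were intergenic, 3 were in introns and 3 overlapped exons. At the coordinates of a RefSeq tRNA gene stood 64 of the 66, all but chr1.tRNA284-ProAGG and chr17.tRNA997-ProTGG. Sequence was found for 3 of the 66 copies. Those 3 are printed from 5′ to 3′ with the anticodon in capitals, because they show how far copies with the same anticodon can differ.
chr11.tRNA372-ProTGG: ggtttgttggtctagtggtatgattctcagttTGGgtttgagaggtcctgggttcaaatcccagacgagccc
chr17.tRNA997-ProTGG: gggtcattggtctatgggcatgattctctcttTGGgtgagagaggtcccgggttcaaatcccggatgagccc
chr7.tRNA1217-ThrAGT: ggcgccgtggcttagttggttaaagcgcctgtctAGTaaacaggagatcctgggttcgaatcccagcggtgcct

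The first lies on the plus strand at chr11:67291139-67291210, inside an exon of Myh8, a myosin heavy chain gene of skeletal muscle, so that its reads cannot be told from those of that exon. The others lie on the minus strand in intergenic sequence, at chr17:23538766-23538837 and chr7:35234770-35234843. The Pro TGG pair shares 59 of 72 bases, or 81.9%. These were also the Pro TGG copies with the fewest reads in the Ion Proton run.

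Depth was 6053130 to 7760142 reads on listed features in the Ion Proton libraries and 4039837 to 12178454 in the SOLiD libraries. Reads on all nuclear tRNAs went from 26.6% and 26.7% of listed reads in control cells to 44.7% and 47.1% after withdrawal in the Ion Proton run, and from 10.2% to 42.2% and from 8.81% to 41.4% in the SOLiD total and 25 to 40 nt libraries. Reads on miRNAs went the other way in the same libraries, from 40.4% and 41.6% to 30.0% and 30.3%, from 82.2% to 41.3% and from 87.4% to 45.1%. In the Ion Proton run the 6 myeloid and blood miRNAs used as markers summed to 68005 to 73997 CPM in control libraries. They summed to 51107 to 58108 CPM in withdrawal libraries. The 4 of them listed in SOLiD summed to 384727 and 142967 RPM in total RNA. Most of each sum was miR-21a-5p, with 58154 and 63063 CPM in control and 42646 and 49331 CPM in withdrawal libraries. In SOLiD total RNA it had 359445 and 131368 RPM. Of the markers listed there, miR-155-5p rose from 361 to 575 RPM, and the others were lower after withdrawal. Of 15 markers of other cells, 9 were listed in the Ion Proton run and summed to 36.2 to 39.9 CPM in control and 31.3 to 35.5 CPM in withdrawal libraries. In SOLiD 13 were listed and summed to 5347 and 4351 RPM in total RNA, of which miR-451a of red blood cells made 3227 and 2659 RPM, and neither table listed miR-1a-3p or miR-124-3p. In the 25 to 40 nt libraries the other-cell markers summed to 4059 and 6500 RPM. The part of these other cells in the SOLiD results was not tested.

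Together the 66 copies took 0.921% and 0.850% of listed reads in the Ion Proton control libraries and 1.65% in each of the withdrawal libraries. Both withdrawal libraries lay above both controls, 1.86-fold higher on average, with 0.886% ± 0.050 and 1.65% ± 0.00068 (SD, n = 2 each). The exact two-sided permutation test gave p = 0.333, the smallest that 2 against 2 libraries allow. The SOLiD share was 0.323% and 1.501% in total RNA, and in the 25 to 40 nt RNA it went from 0.704% to 2.10%, with 1 library per condition and no test. In these bulk libraries, a change in the cells present and a change in RNA per cell cannot be told apart. Each share also depends on what the other RNAs did. A read that fits several copies could be counted on each of up to 10 places in the Ion Proton run, so that sums over copies are not numbers of molecules.

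In the Ion Proton run, 8 of the 10 anticodons passed the edgeR quasi-likelihood test (adjusted p under 0.05 over all features) with more reads after withdrawal, and 0 passed with fewer. At an unadjusted p under 0.05 the counts were also 8 higher and 0 lower, and DESeq2 gave 8 and 0. Over all 1659 features tested, 7.47% were called higher and 5.61% lower. The 8 were the 3 Pro anticodons, both Gln anticodons, Thr TGT, Phe GAA and Trp CCA, and the same 8 had both withdrawal libraries above both controls, a position held by 24.1% of the tested features. The other 41 nuclear tRNA anticodons had 19 called higher and 0 lower, with a median log2 fold change of 0.78, beside 1.06 for the 10 described here and 0.024 over all features. With the most-read copy in place of the sum, 6 of 10 were called higher and 0 lower (6.51% and 0.964% of all features, and 8 and 0 at an unadjusted p under 0.05). With a term for the letters A and B that the labels share between conditions, 0 of the sums were called. In that fit 8 passed an unadjusted p under 0.05, and 7 of 1659 features were called higher and 0 lower. Without withdrawal replicate 1 only 4 of the sums were called.

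**Figure D1:**
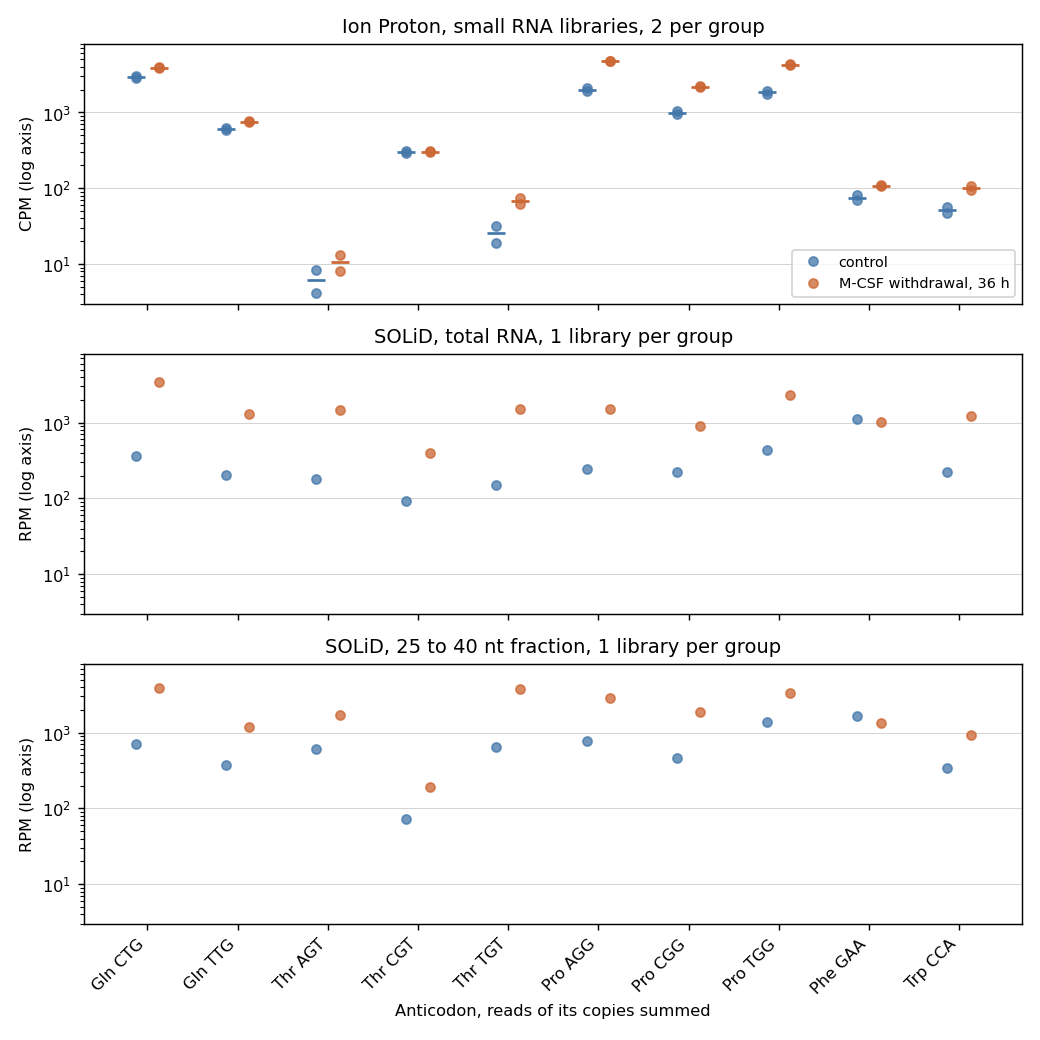
Reads on the 10 anticodons in each library, with the copies summed, on a log axis, in CPM for the Ion Proton run (top; short lines are means of 2 libraries) and in RPM for SOLiD total RNA (middle) and the 25 to 40 nt fraction (bottom). Control libraries are blue and withdrawal libraries orange; Phe GAA is the anticodon whose withdrawal point lies below its control in both SOLiD panels, and Thr CGT and Thr AGT overlap between groups in the Ion Proton run.

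Because the tRNAs as a class took more reads after withdrawal, the anticodons were also compared with all nuclear tRNA reads. On that scale 3 of the 10 were called higher and 3 lower in the Ion Proton run, where 2.29% of all features were called higher and 29.8% lower. The 3 higher were Pro AGG, Pro TGG and Pro CGG, with log2 fold changes of 0.47 (adjusted p = 0.0166), 0.42 (adjusted p = 0.0208) and 0.37 (adjusted p = 0.0402). The 3 lower were Gln CTG at -0.39 (adjusted p = 0.0257), Gln TTG at -0.44 (adjusted p = 0.0339) and Thr CGT at -0.79 (adjusted p = 0.00508). This scaling set the median of all features at -0.95, while library totals alone set it at -0.17 and TMM over miRNAs at 0.20. Changes given below are on the TMM scale unless said otherwise.

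With the SOLiD total RNA added (3 control and 3 withdrawal libraries, limma with a term for the run), 5 of the 10 anticodons were called higher and 0 lower, against 6.21% and 6.89% of 1336 features. At an unadjusted p under 0.05 the counts were 8 higher and 0 lower, and edgeR on the reads of both runs called 5 and 0. These 5 were the 3 Pro anticodons, Thr TGT and Trp CCA. The call count fell to 0 without control replicate 2, where 5 passed an unadjusted p under 0.05, and to 0 without withdrawal replicate 1, where 8 did. Scaled to nuclear tRNA reads, 0 were called in either direction and 1 passed an unadjusted p under 0.05.

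**Figure D2:**
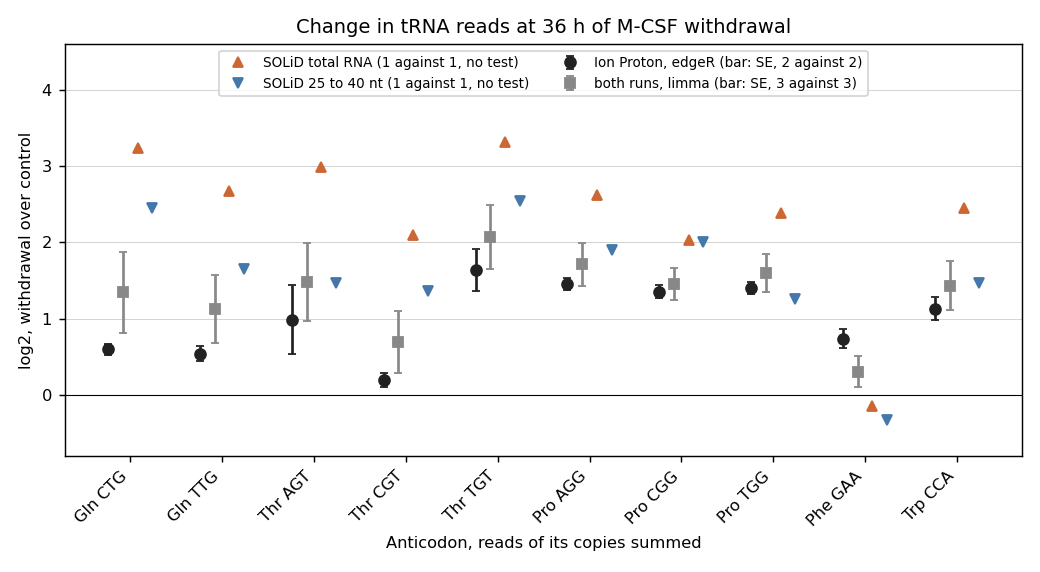
Change of each anticodon after withdrawal, as log2 of withdrawal over control. Circles are edgeR values of the Ion Proton run and squares limma values of both runs, with SE bars; triangles are ratios of single SOLiD libraries with no error. The 3 Pro anticodons lie between 1.35 and 1.45 by edgeR, and Phe GAA is the only anticodon with both SOLiD ratios below 0.

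Proline tRNAs took the most reads of the 5 amino acids in every Ion Proton library, and they gained the most CPM. Pro AGG, which in mammals is read with inosine in place of the A, had 2102 and 1900 CPM in the control libraries and 4788 and 4756 CPM in the withdrawal libraries. The groups stood well apart, at 2001 ± 142 and 4772 ± 22.5 CPM (SD, n = 2), and the log2 fold change was 1.45 ± 0.08 (SE; edgeR adjusted p = 0.00164). Pro TGG rose from 1930 and 1773 CPM to 4300 and 4244 CPM, by 1.41 ± 0.08 (edgeR adjusted p = 0.00164). Pro CGG rose from 1033 and 941 CPM to 2204 and 2192 CPM, by 1.35 ± 0.08 (edgeR adjusted p = 0.00185). With both runs the limma changes were 1.71, 1.60 and 1.45 for Pro AGG, Pro TGG and Pro CGG, with adjusted p of 0.0149, 0.0131 and 0.0109.

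In SOLiD the 3 Pro anticodons were also higher after withdrawal. In total RNA, Pro AGG went from 247 RPM (95% Wilson interval 235 to 260) to 1529 RPM (1507 to 1551), Pro CGG from 222 to 913 RPM and Pro TGG from 438 to 2283 RPM. These are 6.18-, 4.11- and 5.22-fold. The 25 to 40 nt RNA had 767 and 2860, 464 and 1863, and 1378 and 3286 RPM of the same anticodons, or 3.73-, 4.02- and 2.38-fold. At least 2-fold higher were 27.7% of features in total RNA and 40.8% in the 25 to 40 nt RNA, and 9 of the 10 anticodons, all but Phe GAA, passed that fold in both. Wilson intervals cover counting error only, and the RNA integrity number was 8.4 in the control and 7.5 in the withdrawal sample of total RNA, and its part in the ratios was not tested.

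Tested copy by copy in the Ion Proton run, 34 of the 66 copies were called higher and 0 lower, where 15.7% of 2029 features were called higher and 8.97% lower. At an unadjusted p under 0.05 they were 47 and 0, and DESeq2 called 29 and 0. Without withdrawal replicate 1 the count was 17, and without withdrawal replicate 2 it was 18. Both withdrawal libraries lay above both controls for 57 copies and below them for 1, positions held by 33.4% and 28.0% of features. Relative to nuclear tRNA reads 10 copies were called higher and 16 lower (3.84% and 29.4% of features). In SOLiD total RNA 56 of the 66 copies were at least 2-fold higher (42.4% of features) and 6 were lower (42.7%), and in the 25 to 40 nt RNA 49 were at least 2-fold higher (50.7%) and 8 lower (27.9%).

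Of the 18 Pro copies, 16 were called higher and 0 lower in the Ion Proton run when each copy was tested alone (15.7% and 8.97% of all features). At an unadjusted p under 0.05 the Pro count was also 16 higher, and DESeq2 called the same number. The copy with the largest change at 10 CPM or more was chrX.tRNA935-ProTGG, with 129 and 120 CPM in control and 370 and 355 CPM in withdrawal libraries, a log2 fold change of 1.60 (edgeR adjusted p = 0.00166). The copy with the smallest was chr17.tRNA997-ProTGG, whose sequence is given above and which has no RefSeq tRNA gene at its coordinates. It had 22.0 and 20.5 CPM in control and 16.1 and 19.0 CPM in withdrawal libraries, so that both withdrawal libraries lay below both controls, with a change of -0.22 ± 0.16 (edgeR adjusted p = 0.388). The same copy went from 6.06 to 29.8 RPM in SOLiD total RNA and from 30.3 to 84.4 RPM in the 25 to 40 nt RNA. The copy inside the Myh8 exon, chr11.tRNA372-ProTGG, had at most 1.84 CPM and 12.6 RPM in any library, and its groups overlapped in the Ion Proton run.

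The Pro copies of the Ion Proton run cannot be read as independent measurements, since 5 copies with 3 different anticodons had nearly the same level, from 356 to 433 CPM in the control libraries and from 988 to 1059 CPM in the withdrawal libraries. Counting pairs within 5% of each other in all 4 libraries, 9 of 52 Pro pairs with the same anticodon and 6 of 101 pairs with different anticodons matched. In SOLiD the matching pairs numbered 9 of 52 and 0 of 101. Copies of other amino acids also matched in the Ion Proton run. Same-anticodon matches were 21 of 60 pairs for Gln, 8 of 21 for Phe, 6 of 28 for Trp and 0 of 48 for Thr. Counts of copies called are therefore not counts of independent results.

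**Figure D3:**
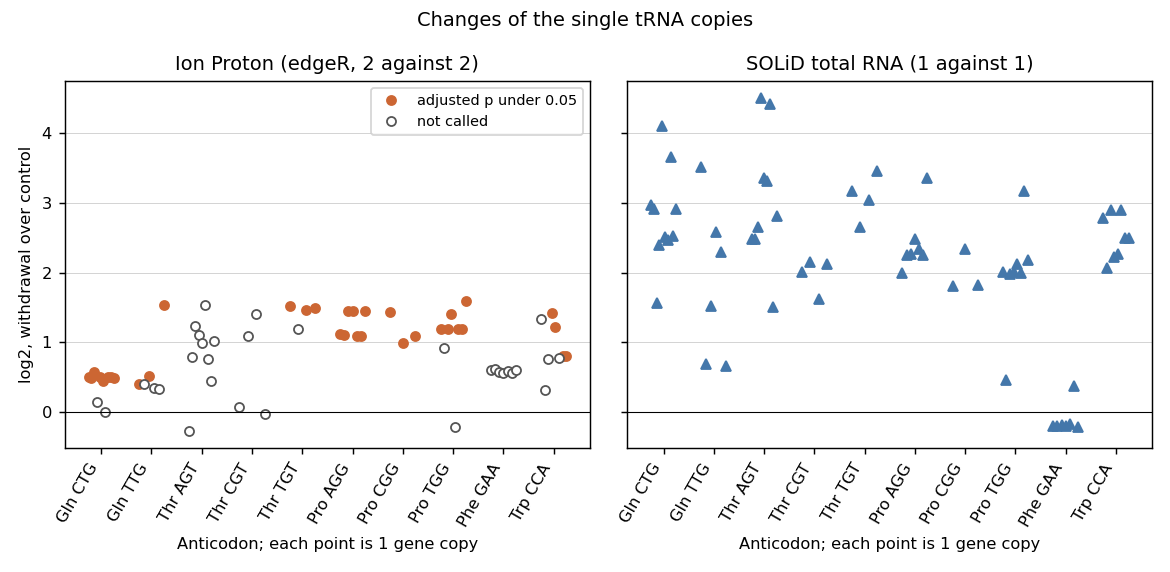
Change of each of the 66 copies, grouped by anticodon, as log2 of withdrawal over control in the Ion Proton run (left; filled points passed an adjusted p of 0.05 in edgeR) and in SOLiD total RNA (right; single libraries, no test). The 7 Phe GAA copies lie between 0.56 and 0.62 on the left, while 6 of them lie below 0 on the right, and chr17.tRNA997-ProTGG lies below 0 on the left.

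Glutamine tRNAs had smaller log2 fold changes than proline tRNAs in the Ion Proton run and, for Gln CTG, larger ratios in SOLiD. Gln CTG, which reads the CAG codon, was the most-read of the 10 anticodons in the Ion Proton control libraries when copies were summed. It had 3046 and 2867 CPM there and reached 3862 and 3917 CPM after withdrawal. Its log2 fold change was 0.59 ± 0.07 (SE; edgeR adjusted p = 0.0132), and in both runs together 1.34 ± 0.53 (limma adjusted p = 0.138). Gln TTG, which reads CAA, went from 620 and 579 CPM to 738 and 781 CPM, by 0.54 ± 0.09 (edgeR adjusted p = 0.0347). The Gln TTG call was lost whichever single library was left out, at adjusted p from 0.0536 to 0.100, and on library totals alone, at adjusted p = 0.0776. For both anticodons the withdrawal libraries lay above the controls. Relative to nuclear tRNA reads both were called lower instead, as given above.

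In SOLiD total RNA Gln CTG went from 361 RPM (345 to 376) to 3406 RPM (3373 to 3438), or 9.45-fold, and Gln TTG from 204 to 1313 RPM, or 6.42-fold. Both also stood higher in the 25 to 40 nt RNA, where they went from 700 to 3833 RPM and from 373 to 1178 RPM. A single copy, chr13.tRNA994-GlnCTG, made much of this, with 78.0 RPM in the control and 1358 RPM in the withdrawal library of total RNA and 147 and 1560 RPM in the 25 to 40 nt RNA. That copy was chosen for its values as the most-read one, and took 21.6% of the Gln CTG reads in the control and 39.9% in the withdrawal library of SOLiD total RNA. By contrast, the Ion Proton libraries gave it 341 and 320 CPM in control and 447 and 454 CPM in withdrawal libraries, close to 4 other Gln CTG copies with 321 to 347 CPM in control libraries. The most-read Gln TTG copy was chr11.tRNA1493-GlnTTG in both runs, with 57.0 and 666 RPM in SOLiD total RNA. It partly overlaps annotated exon sequence, at a site within the spans of the non-coding genes Gm11527 and 4833417C18Rik.

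Of the 16 Gln copies 11 were called higher and 0 lower in the Ion Proton run (15.7% and 8.97% of all features), 8 of 10 for Gln CTG and 3 of 6 for Gln TTG. DESeq2 called 8 Gln CTG and 0 Gln TTG copies, with 1 Gln TTG copy at an unadjusted p under 0.05. The largest change at 10 CPM or more was 0.57 for chr13.tRNA87-GlnCTG, from 253 and 244 CPM to 352 and 358 CPM (edgeR adjusted p = 0.0109). That call did not hold in every fit with 1 library left out, where the change ran from 0.48 to 0.61. The smallest was -0.01 for chr3.tRNA309-GlnCTG, with 220 and 199 CPM in control and 205 and 196 CPM in withdrawal libraries, which overlapped (edgeR adjusted p = 0.952). In SOLiD total RNA these 2 copies went from 28.9 to 87.4 RPM and from 26.2 to 150 RPM, so that their order was the reverse of that in the Ion Proton run.

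The 3 threonine anticodons differed from each other. Thr TGT went from 32.0 and 18.8 CPM to 75.1 and 62.3 CPM in the Ion Proton run, with a log2 fold change of 1.63 ± 0.28 (SE; edgeR adjusted p = 0.0341). This was the largest estimate of the 10, but without control replicate 2 it was 1.34, below 1.42 for Pro AGG and 1.39 for Pro TGG, and without withdrawal replicate 1 the call was lost (1.51, adjusted p = 0.0621). Its 4 libraries did not overlap by group, although the controls themselves stood far apart. With both runs the change was 2.07 ± 0.42 (limma adjusted p = 0.0285). Thr CGT had 310 and 295 CPM in control and 297 and 306 CPM in withdrawal libraries, which overlapped, with a change of 0.19 ± 0.09 (edgeR adjusted p = 0.290) that was -0.0044 on library totals alone. Thr AGT rested on 30 to 81 reads per library over its 9 copies, with 8.25 and 4.18 CPM in control and 8.13 and 13.4 CPM in withdrawal libraries, which overlapped (0.99 ± 0.45, edgeR adjusted p = 0.266).

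In SOLiD all 3 took more reads after withdrawal. Thr TGT in total RNA went from 150 to 1508 RPM, the largest fold of the 10 anticodons at 10.1, Thr AGT from 181 to 1449 RPM and Thr CGT from 91.5 to 395 RPM. In the 25 to 40 nt RNA the values were 653 and 3813, 610 and 1688, and 73.1 and 190 RPM. Thr AGT thus stood at 181 RPM or above in every SOLiD library and at 13.4 CPM or below in every Ion Proton library. The 2 runs used different library kits, mappers and scales, and the part of each in this gap was not tested.

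Of the 17 Thr copies 3 were called higher and 0 lower in the Ion Proton run, all of them Thr TGT. Over all features 15.7% were called higher and 8.97% lower, so the Thr count stands near the share of all features. Neither Thr AGT (0 of 9) nor Thr CGT (0 of 4) had a copy called by edgeR, with 0 at an unadjusted p under 0.05 and 0 by DESeq2. Only 5 Thr copies reached a mean of 10 CPM. Among these the largest change was 1.52 for chr11.tRNA206-ThrTGT, from 9.79 and 6.27 CPM to 24.4 and 20.2 CPM (edgeR adjusted p = 0.0176). That call did not hold in every fit with 1 library left out, where the change ran from 1.24 to 1.77. The smallest was -0.04 for chr16.tRNA50-ThrCGT, with 80.3 and 68.5 CPM in control and 69.3 and 70.5 CPM in withdrawal libraries (edgeR adjusted p = 0.861). The copy chr11.tRNA550-ThrCGT, which partly overlaps an exon of the lincRNA gene Gm11205, held 73.7% to 76.5% of the Thr CGT reads in the Ion Proton libraries. Its level there was 228 and 225 CPM in control and 226 and 233 CPM in withdrawal libraries, while in SOLiD total RNA it went from 38.3 to 158 RPM. Thr AGT copy chr7.tRNA1217-ThrAGT, whose sequence is printed above, stayed at 1.23 CPM or below in the Ion Proton run and went from 16.6 to 123 RPM in SOLiD total RNA.

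Tryptophan has the single anticodon CCA. Its copies summed to 47.7 and 57.2 CPM in control and 107 and 93.7 CPM in withdrawal libraries of the Ion Proton run, with no overlap and a log2 fold change of 1.13 ± 0.15 (SE; edgeR adjusted p = 0.0171). The change over both runs was 1.43 ± 0.33 (limma adjusted p = 0.0387). That call was lost whichever single Ion Proton library was left out, at limma adjusted p from 0.0593 to 0.129. SOLiD gave 220 and 1210 RPM in total RNA and 338 and 938 RPM in the 25 to 40 nt RNA. With its most-read copy alone, chr11.tRNA1880-TrpCCA, the Ion Proton change was 1.40 and no longer called (edgeR adjusted p = 0.0534), and the call on the sum was lost without withdrawal replicate 1 (adjusted p = 0.0536). When copies were tested each on its own in the deposited table, 4 of 8 were called higher and 0 lower (15.7% and 8.97% of all features), and DESeq2 called 2. Only 2 Trp copies reached 10 CPM. They were chr11.tRNA1849-TrpCCA, with 5.67 and 6.82 CPM in control and 18.6 and 13.7 CPM in withdrawal libraries (1.42, edgeR adjusted p = 0.0150), and chr11.tRNA1880-TrpCCA, with 12.5 and 19.9 and then 39.7 and 33.2 CPM (1.22, edgeR adjusted p = 0.0326). Neither call held in every fit with 1 library left out, where the changes ran from 1.18 to 1.61 and from 0.81 to 1.60.

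Phenylalanine tRNA, with the single anticodon GAA, moved in opposite directions in the 2 runs. Its Ion Proton values went from 80.5 and 69.4 CPM to 107 and 110 CPM, both withdrawal libraries above both controls, with a log2 fold change of 0.73 ± 0.13 (SE; edgeR adjusted p = 0.0347). In SOLiD total RNA it went from 1119 RPM (95% Wilson interval 1092 to 1147) to 1007 RPM (989 to 1025). In the 25 to 40 nt RNA it went from 1680 RPM (1653 to 1707) to 1342 RPM (1307 to 1378). The SOLiD intervals do not overlap, but each condition had 1 library, and the difference between runs was not tested. Centred on the median log2 ratio of features with 10 RPM or more in both libraries (-0.23), the total RNA log2 ratio went from -0.15 to 0.080, and centred likewise (0.54) the ratio of the 25 to 40 nt RNA went from -0.32 to -0.86. With both runs the change was 0.31 ± 0.20 (limma adjusted p = 0.347), and with the most-read copy alone the Ion Proton call was lost (0.78, edgeR adjusted p = 0.0745). It was also lost on library totals alone (adjusted p = 0.0596) and without control replicate 2 (0.0760), withdrawal replicate 1 (0.0853) or withdrawal replicate 2 (0.109). Lower values after withdrawal were found for 57.0% of features in total RNA and 36.5% in the 25 to 40 nt RNA, against 1 of the 10 anticodons in each.

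The 7 Phe copies had almost equal levels. Their Ion Proton means spanned 12.1 to 13.6 CPM, and none was called alone by edgeR, with adjusted p from 0.0503 to 0.0813. All 7 passed an unadjusted p under 0.05 in edgeR, and 0 did so in DESeq2. The largest and smallest changes were 0.62 for chr13.tRNA1000-PheGAA, from 11.2 and 10.0 CPM to 15.5 and 16.0 CPM, and 0.56 for chr14.tRNA462-PheGAA, from 12.1 and 10.3 CPM to 15.9 and 15.9 CPM. In SOLiD total RNA 6 of the 7 copies went lower, chr13.tRNA1000-PheGAA from 171 to 148 RPM. The exception was chr19.tRNA108-PheGAA, chosen after its values were seen, which went from 80.0 to 103 RPM in total RNA and from 159.6 to 159.7 RPM in the 25 to 40 nt RNA.

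The order of the anticodons differed between runs and conditions. All copies are of nearly the same length, so gene length adds little to the order within a run. The order is one of reads, and how well reads measure the amount of each tRNA was not tested. A sum also grows with the number of copies that share reads. In the Ion Proton control libraries the order of the sums was Gln CTG, Pro AGG, Pro TGG, Pro CGG, Gln TTG, Thr CGT, Phe GAA, Trp CCA, Thr TGT and Thr AGT, from 2957 ± 127 CPM to 6.21 ± 2.88 CPM (SD, n = 2). Pro AGG and Pro TGG overlapped, and the other neighbours did not. After withdrawal the sums of Pro AGG and Pro TGG stood above that of Gln CTG, at 4772 ± 22.5, 4272 ± 39.1 and 3890 ± 38.8 CPM. Phe GAA and Trp CCA, at 109 ± 2.13 and 100.2 ± 9.23 CPM, differed by less than the spread of the Trp CCA libraries. By the most-read copy, Pro TGG, Pro CGG and Pro AGG already stood above Gln CTG in control, at 412, 384, 377 and 344 CPM. By that copy Gln CTG ranked 4 of 10 in both conditions of the Ion Proton run. By sums in SOLiD, Phe GAA ranked 1 of 10 in both control libraries and 8 and 7 of 10 in the withdrawal libraries of total and 25 to 40 nt RNA, and Gln CTG ranked 1 in both withdrawal libraries. By the most-read copy, Phe GAA ranked 1 in total and 2 in 25 to 40 nt RNA of control cells. After withdrawal it ranked 10 and 9 by that copy, and Gln CTG ranked 1 and 2.

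**Figure D4:**
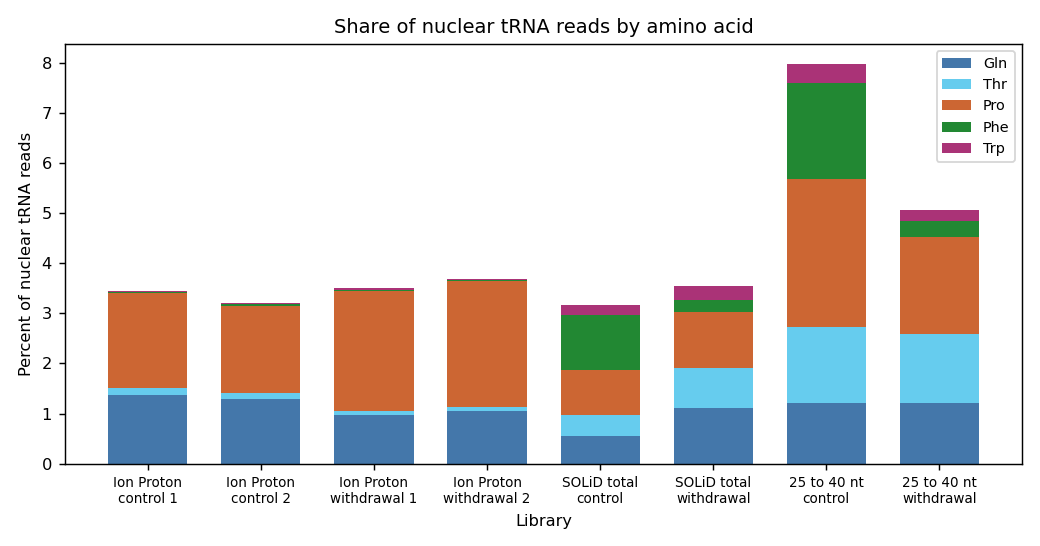
Percent of nuclear tRNA reads taken by each of the 5 amino acids in each of the 8 libraries, as stacked bars from 0. Pro takes more than 1.7% in every Ion Proton library and Phe at most 0.0302%, while Phe takes 1.10% and 1.91% in the SOLiD control libraries and 0.238% and 0.324% after withdrawal.

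As a share of nuclear tRNA reads, the 5 amino acids took 3.45% and 3.20% in Ion Proton control and 3.50% and 3.69% in withdrawal libraries. The SOLiD shares were 3.18% and 3.56% in total RNA and 7.98% and 5.07% in the 25 to 40 nt RNA. The parts within this share moved differently. In the Ion Proton run Pro went from 1.90% and 1.74% to 2.40% and 2.51%, Gln from 1.37% and 1.30% to 0.976% and 1.05%, and Thr from 0.131% and 0.119% to 0.0807% and 0.0854%, each with no overlap between groups and an exact permutation p = 0.333. Gln instead went up in SOLiD total RNA, from 0.555% to 1.12%, and was 1.22% and 1.21% in the 25 to 40 nt RNA.

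All 10 pairs of amino acids were compared by the ratio of their reads within each library. For the Ion Proton run 9 of the 10 ratios separated the groups. Each had an exact permutation p = 0.333 before and 0.370 after Benjamini-Hochberg adjustment. These are above any usual threshold, because 2 against 2 libraries cannot give less than 0.333. The reads of each amino acid enter several of the ratios, so the 10 ratios are not independent results. How many ratios between other tRNAs separated the groups was not counted. The ratio of Gln to Pro reads was 0.724 and 0.747 in control and 0.407 and 0.420 in withdrawal libraries. In SOLiD it went the other way, with 0.623 and 0.999 for total RNA and 0.411 and 0.626 for the 25 to 40 nt RNA. The ratio of Thr to Pro reads was also lower after withdrawal in the Ion Proton run, going from 0.0691 and 0.0688 to 0.0337 and 0.0341. In SOLiD it was 0.466 and 0.710 in total RNA and 0.512 and 0.710 in the 25 to 40 nt RNA. The ratio of Pro to Trp reads was the one that overlapped in the Ion Proton run.

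The 25 to 40 nt libraries could be set beside the total RNA libraries of the same run, as values of single libraries. In control cells 9 of the 10 anticodons had more RPM in the 25 to 40 nt RNA, from 1.501-fold for Phe GAA to 4.35-fold for Thr TGT, and Thr CGT had 0.799-fold. After withdrawal the ratios ran from 0.480 for Thr CGT to 2.53 for Thr TGT, and Gln TTG and Trp CCA were also below 1, at 0.897 and 0.776. All nuclear tRNAs together took 10.2% of listed reads in total RNA and 8.81% in the 25 to 40 nt RNA of control cells. After withdrawal they took 42.2% and 41.4%. How many of all features had more RPM in the 25 to 40 nt RNA was not counted. The RNA integrity number was 2.7 and 2.6 for the size-selected samples.

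Of the mitochondrial tRNAs for the same amino acids, which are encoded by the mitochondrial genome and are no members of the nuclear set, 4 of 5 were called higher in the Ion Proton run and 0 lower, in the copy-by-copy fit where 15.7% and 8.97% of features were. The Pro tRNA mt-Tp rose from 22.9 and 26.0 CPM to 1129 and 998 CPM (log2 fold change 5.49, edgeR adjusted p = 0.000393), and the Gln tRNA mt-Tq from 152 and 155 CPM to 1455 and 1532 CPM (3.34, edgeR adjusted p = 0.000393). The Thr tRNA mt-Tt and the Trp tRNA mt-Tw changed by 2.82 and 0.81 (edgeR adjusted p = 0.00895 and 0.0148). The Phe tRNA mt-Tf had 21.9 and 12.7 CPM in control and 17.0 and 14.5 CPM in withdrawal libraries (-0.08, edgeR adjusted p = 0.880), and went from 114 to 569 RPM in SOLiD total RNA.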

How the data were processed

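The authors trimmed Ion Proton reads with cutadapt 1.2.1, dropped those under 15 bases, mapped the rest to mm10 with bowtie2 2.2.4 at up to 10 places per read, and deposited raw counts per feature. SOLiD reads were mapped with LifeScope, and the authors deposited reads per 1000000 listed reads (RPM, written with decimal commas). Whole reads were recovered for 100% of SOLiD values within 0.01 read. The nuclear tRNA copies were summed by anticodon, or the most-read copy of each run was kept. Counts with a sum of at least 5 were tested with edgeR 4.0.16 (TMM, quasi-likelihood), and log2 of CPM or RPM plus 1 over both runs with limma 3.58.1 (R 4.3.3), adjusted by Benjamini-Hochberg. All 10 anticodons and 66 copies passed the filter. CPM is counts per 1000000 listed reads. SOLiD folds are RPM ratios, and log2 ratios use RPM plus 1. Named copies were those with the highest and lowest change per amino acid at 10 CPM or more. The fits were run on simulated data with the same dispersion for all features and no reads shared between copies. That simulation does not cover the shared reads of tRNA copies. Alternatives included DESeq2 1.42.0. The labels call the Ion Proton extract small RNA and the methods total RNA. The members and lists were chosen with earlier results of these data known. Shares were tested with scipy 1.17.1.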

Additional observations from a re-analysis of the deposited data

Results flagged for a closer look

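Some values moved one way in every Ion Proton library and the other way in the SOLiD libraries, and these differences between runs were not tested. Phe GAA, at 0.73 on the log2 scale in the Ion Proton run, had ratios of -0.15 in SOLiD total RNA and -0.32 in the 25 to 40 nt RNA. Relative to nuclear tRNA reads Phe GAA was lower in the Ion Proton run too, at -0.25. Its copies chr13.tRNA1000-PheGAA and chr14.tRNA462-PheGAA, at 0.62 and 0.56, each had -0.21 in total RNA and -0.36 and -0.37 in the 25 to 40 nt RNA. The copy chr17.tRNA997-ProTGG, at -0.22, had 2.12 and 1.45.

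The ratios of Gln and Thr reads to those of Pro, Phe and Trp were lower after withdrawal in the Ion Proton run and higher in SOLiD. On the log2 scale Gln over Pro changed by -0.83, against 0.68 in total RNA and 0.60 in the 25 to 40 nt RNA. Gln over Phe changed by -0.15, against 3.21 and 2.55, and Gln over Trp by -0.55, against 0.61 and 0.75. Thr over Pro changed by -1.03, against 0.61 and 0.47, Thr over Phe by -0.35, against 3.14 and 2.41, and Thr over Trp by -0.74, against 0.53 and 0.62.

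As shares of nuclear tRNA reads, Gln changed by -0.40 and Thr by -0.59 on the log2 scale in the Ion Proton run and by 1.01 and 0.94 in SOLiD total RNA. Pro changed by 0.43 and all 5 amino acids by 0.11 in the Ion Proton run, and by -0.61 and -0.65 in the 25 to 40 nt RNA.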

How the results depend on the processing

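The Ion Proton count of 8 anticodons called higher was 6 or 8 by DESeq2, RLE factors, TMM over miRNAs, library totals, other count minimums and the most-read copy, 3 relative to nuclear tRNA reads and 4 to 7 when a library was left out. The 5 called in both runs were 0 scaled to nuclear tRNA reads (1 at an unadjusted p under 0.05), 5 or 6 under the other scalings, tests, pseudocounts and minimums, and 0 to 4 when a library was left out. The 34 copies called were 10 relative to nuclear tRNA reads, with 16 lower, and 17 to 31 when a library was left out, lowest without withdrawal replicate 1 (17) and withdrawal replicate 2 (18), and 29 to 46 by DESeq2, other scalings and other minimums. The log2 change in the share of reads, 0.90, was 1.39 with most-read copies, 0.11 relative to nuclear tRNA reads and 1.34 relative to miRNA reads, and 0.84 to 0.95 when a library was left out. With the replicate block the counts were 0 anticodons by edgeR (8 at an unadjusted p under 0.05, lowest adjusted p 0.0693), 3 in both runs and 26 copies. The labels share the letters A and B between conditions, numbered here as replicates 1 and 2. Deviations of same-lettered libraries correlated at only -0.020 over 886 features, and the letters were not taken as pairs. This single correlation does not exclude a pairing.

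Relative to nuclear tRNA reads the direction turned in the Ion Proton run for Gln CTG (-0.39), Gln TTG (-0.44), Thr CGT (-0.79) and Phe GAA (-0.25), and for the copies chr13.tRNA1000-PheGAA (-0.22), chr13.tRNA87-GlnCTG (-0.27) and chr14.tRNA462-PheGAA (-0.28). In both runs it turned for Gln TTG (-0.084), Thr CGT (-0.51) and Phe GAA (-0.90), in SOLiD total RNA for Pro CGG (-0.014), and in the 25 to 40 nt RNA for Gln TTG (-0.57), Thr AGT (-0.76), Thr CGT (-0.85), Pro AGG (-0.33), Pro CGG (-0.23), Pro TGG (-0.98) and Trp CCA (-0.76). Thr AGT turned with its most-read copy (-0.10), Thr CGT on library totals (-0.0044), and Phe GAA in SOLiD total RNA when centred on the median (0.080). With TMM over miRNAs chr16.tRNA50-ThrCGT (0.29), chr17.tRNA997-ProTGG (0.10) and chr3.tRNA309-GlnCTG (0.32) turned, the last also without withdrawal replicate 2 (0.011, with -0.074 to 0.011 when a library was left out). The cause was not tested. Otherwise the single anticodons kept direction and side of the threshold in 101 alternatives of the Ion Proton fit and 126 of both runs, and lost a call in 23 and 19 and gained one in 0 and 2. SOLiD ratios moved beyond counting error, without turning, in 26 alternatives for total RNA and 21 for the 25 to 40 nt RNA. Single SOLiD libraries limit the SOLiD values, and 30 to 81 reads those of Thr AGT.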
